A study of Mus musculus with 6 samples.

Results

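Wnt signalling was followed here through 48 genes of the 43346 in the deposited mouse count table: all 19 Wnt ligands, the 10 Frizzled receptors, the co-receptors Lrp5 and Lrp6, 4 R-spondins, the ubiquitin ligases Rnf43 and Znrf3, the ligand carrier Wls, and 10 secreted inhibitors (Sfrp1, Sfrp2, Sfrp4, Sfrp5, Frzb, Wif1 and Dkk1 to Dkk4). They were picked by gene symbol, with earlier results of these data known when the choice was made. Their RNA was measured in 6 bulk liver tumours raised with diethylnitrosamine (DEN), a carcinogen that hepatocytes activate, in mice labelled as overexpressing SULF2, an extracellular sulfatase that trims heparan sulfate. Of these tumours, 3 were wild type for Gli1 (WT) and 3 were Gli1 knockouts (KO), and the labels give SULF2 overexpression for all 6. GLI1 is a zinc finger transcription factor of the Hedgehog pathway, and the study asked what it contributes to liver tumours promoted by SULF2.

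The sample titles call the transgenic background Sulf2-TTR without spelling out the second part of that name. Neither age, sex nor the deleted part of Gli1 is given, and nothing states that the tumours were taken from different animals, so every p-value measures only the spread between these samples. Untreated liver and tumours without the transgene were not analysed here. Libraries held 75205624 to 132979502 gene-assigned reads. Gli1 itself had 10, 20 and 7 reads in WT replicates 1, 2 and 3 and 4, 3 and 3 reads in KO replicates 1, 2 and 3, so each knockout lay below each wild type at a very low level. Sulf2 had 76.4, 11.6 and 5.33 counts per 1e6 reads (CPM) in WT and 164, 2.63 and 10.2 CPM in KO, in replicate order. It overlapped between genotypes, and 4 of 6 tumours were under 12 CPM. The overexpression is therefore known from the labels and was not shown by these counts of the mouse gene in every tumour. Whether the counts take in RNA of the transgene was not tested. The tissue label was checked on 9 hepatocyte markers, which summed to 144434 to 203520 CPM with none at 0. WT replicate 3 and KO replicate 1 stood apart from the other 4 libraries on the first principal component, at 80.9 and 65.2 against -67.9 to -6.95.

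Wnt ligands are lipid-modified secreted proteins that bind a Frizzled receptor together with Lrp5 or Lrp6, which stabilises beta-catenin and switches on its target genes. R-spondins strengthen the signal by removing Rnf43 and Znrf3, the ligases that clear Frizzled from the cell surface, while secreted inhibitors bind either the ligands or the Lrp co-receptors. In normal liver, endothelial cells around the central vein and the sinusoids supply Wnt2, Wnt9b and Rspo3, and nearby hepatocytes respond with a pericentral programme that includes glutamine synthetase. Wnt ligands also bind heparan sulfate, the substrate of SULF2.

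No member differed between Gli1 KO and WT tumours beyond the spread between replicates. Of the 48 members, 26 had enough reads to be tested and 0 passed a false discovery rate (FDR) of 0.05 in edgeR's quasi-likelihood test, where percent called over all 18359 genes was also 0%. At an unadjusted p under 0.05 there were 0 of 26, against 3.62% of all genes, and Dkk2 had the smallest p. DESeq2 gave an unadjusted p-value for 45 members and called 0 after adjustment. It called 0.317% of the 19548 genes that kept an adjusted p, and how many of the 45 members kept one is not given here. Of the 45, 1 (Dkk2) had an unadjusted p under 0.05, against 3.88% of 28057 genes. The log2 fold change (KO minus WT throughout) was positive for 15 members and negative for 11, with a median of 0.12 against -0.01 over all genes tested. The genotypes did not overlap for 1 member, Wnt5a, which is 1 of 26 against 8.11% of all genes (3.96% lower and 4.15% higher in KO).

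**Figure D1:**
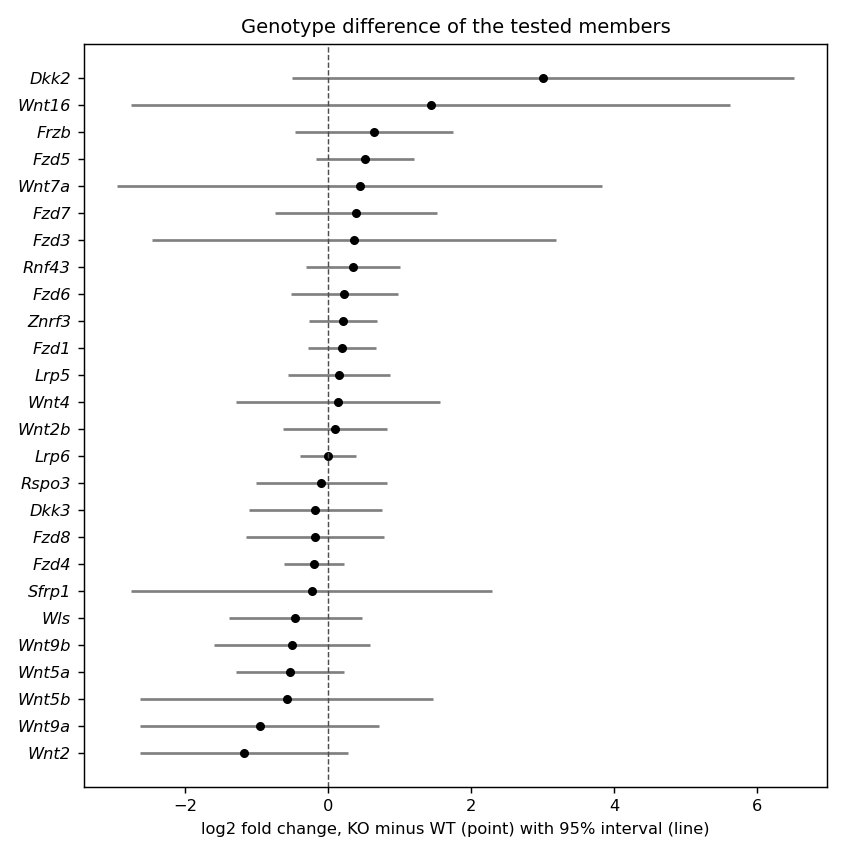
Log2 fold change of each of the 26 tested members, KO minus WT (x axis, points), with its 95% interval (lines), ordered by size on the y axis. Every interval includes 0; they run from -0.39 to 0.39 for Lrp6 to -0.51 to 6.51 for Dkk2.

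Results were repeated without the libraries that stood apart. Without WT replicate 3, 5 of 26 members had an unadjusted edgeR p under 0.05 (Dkk2 and Frzb higher in KO, Fzd5 higher, Wnt2 and Wnt9a lower), against 9.47% of all genes, and 8 did not overlap, against 28% of all genes. Without WT replicate 3 and KO replicate 1 together, 1 of 23 (Frzb) had an unadjusted p under 0.05, against 6.84%, and 7 did not overlap, against 36.5%. Without KO replicate 1 alone, 0 of 27 had an unadjusted p under 0.05, for which the share of all genes is not given here. In that fit 1 (Wnt5a) did not overlap, against 14.8% of all genes. In each of these fits 0 members passed the FDR threshold, and Wnt5a was without overlap.

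The intervals differed widely in what they allow. The 95% interval of Lrp6 spanned -0.39 to 0.39 on the log2 scale and that of Fzd4 -0.61 to 0.23. For Wnt2 it spanned -2.63 to 0.28 and for Wnt5b -2.63 to 1.47, so a 2-fold fall (-1 on the log2 scale) was inside the interval of both ligands, and a 2-fold rise only inside that of Wnt5b.

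The ligand repertoire was narrow. Of 19 ligands, 9 were tested (Wnt2, Wnt2b, Wnt4, Wnt5a, Wnt5b, Wnt7a, Wnt9a, Wnt9b and Wnt16), 8 had reads but too few to test, and Wnt3a and Wnt8a had 0 reads in every library. A count of 0 over all 565176751 reads allows a level of up to 0.00531 CPM, counting error only. Levels of different genes are compared in reads per kilobase of coding length per 1e6 reads (RPKM) as deposited, which are not TMM-scaled. Summed over the 19 ligands, RPKM came to 1.89, 4.08 and 1.74 in WT replicates 1, 2 and 3 and to 1.88, 2.41 and 1.81 in KO replicates 1, 2 and 3. All ligands together therefore held less RPKM than the receptor gene Fzd4 alone in 5 of 6 tumours, the exception being WT replicate 2.

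**Figure D2:**
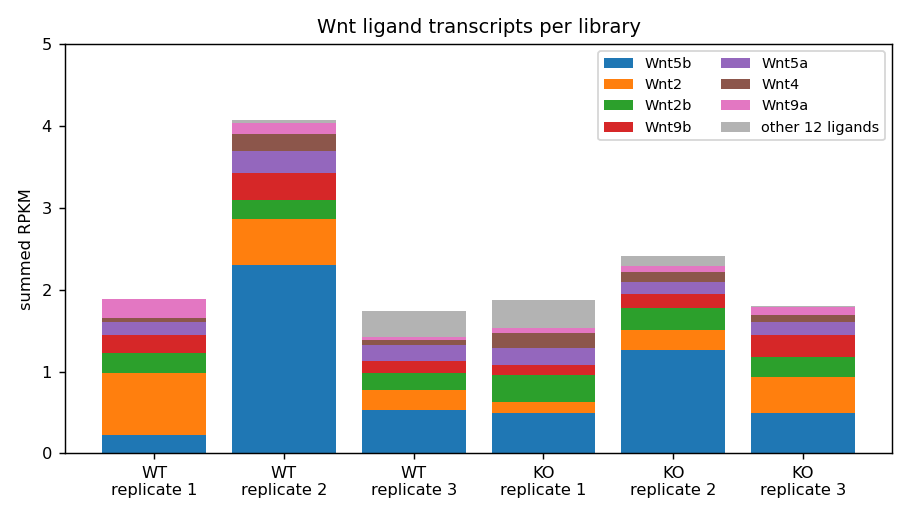
Deposited RPKM of the Wnt ligands stacked for each library (x axis), with the y axis giving their sum; the 7 ligands with the highest mean are coloured and the other 12 are pooled in grey. Wnt5b made up 56.5% of the ligand sum in WT replicate 2, and Wnt2 made up 40.4% in WT replicate 1.

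Wnt5b, a ligand best known for signalling without beta-catenin, had the highest RPKM of the ligands in 5 of 6 tumours, and Wnt2 led in WT replicate 1. Wnt5b took 11.9 to 56.5% of the summed ligand RPKM, Wnt2 7.20 to 40.4%, Wnt2b 5.68 to 17.8% and Wnt9b 6.32 to 15.0%. Over the 6 tumours mean RPKM was 0.885 ± 0.777 (SD, n = 6) for Wnt5b, 0.397 ± 0.237 for Wnt2, 0.254 ± 0.0434 for Wnt2b, 0.208 ± 0.0781 for Wnt9b and 0.188 ± 0.0491 for Wnt5a. The order from Wnt2 down to Wnt5a was not separated by the spread over tumours, since the ranges of these ligands overlapped.

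Wnt5b varied most between tumours among the ligands with a mean of at least 1 CPM. It had 0.777, 7.23 and 1.72 CPM in WT replicates 1, 2 and 3, where CPM are scaled by edgeR's TMM factors from here on, and 1.34, 3.78 and 1.38 CPM in KO replicates 1, 2 and 3. The libraries numbered 2 were the highest of each genotype, and the genotypes overlapped throughout. The log2 fold change for Wnt5b was -0.58 ± 0.86 (± is the SE of a fold change, n = 3 per group here and below), and it became 0.80 without WT replicate 2.

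RefSeq places 3 start sites in Wnt5b (minus strand of mouse chromosome 6, 119432531 to 119544347 as deposited), and the gene counts do not say which was used. The 250 bases before the innermost and the outermost start are shown because Wnt5b was the leading ligand and because the innermost window held an exact TCF/LEF core, CTTTGAT. That element is bound by TCF/LEF factors, which bring beta-catenin to DNA. In GENCODE M21 neither window overlaps an exon of any gene. Both are on GRCm38.p6, minus strand, with the core in capitals.
Wnt5b innermost start, chr6:119449387-119449636: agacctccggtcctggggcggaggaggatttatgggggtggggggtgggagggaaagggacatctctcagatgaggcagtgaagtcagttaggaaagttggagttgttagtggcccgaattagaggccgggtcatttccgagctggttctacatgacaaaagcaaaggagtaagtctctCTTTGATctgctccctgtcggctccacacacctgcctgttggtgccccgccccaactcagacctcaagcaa
Wnt5b outermost start, chr6:119544348-119544597: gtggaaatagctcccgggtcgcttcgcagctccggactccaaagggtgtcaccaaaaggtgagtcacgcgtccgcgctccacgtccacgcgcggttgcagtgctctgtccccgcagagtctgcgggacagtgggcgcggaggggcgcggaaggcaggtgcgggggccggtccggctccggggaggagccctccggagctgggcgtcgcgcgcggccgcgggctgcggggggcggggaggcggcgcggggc

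The core lay 71 bases before the innermost start, and the outermost window held none. RefSeq promoter windows (250 bases before to 50 after a start) were searched for 31 members with 35 windows. Chromosome 18, where Fzd8 and Wnt8a lie, was left out for the members but not for all genes. Searched on both strands for CTTTGAT, 2 of the 35 member windows matched (5.71%, Wnt5b and Wnt11), against 3.73% of 32851 windows of all genes. The GLI consensus GACCACCCA matched 0 of the 35 windows, against 0.253% of all windows. The motifs do not overlap each other, and a match or its lack describes only these letters in these windows.

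Wnt2, which sinusoidal endothelial cells release in normal liver, was the ligand with the smallest p. It had 2.24, 1.51 and 0.663 CPM in WT replicates 1, 2 and 3 and 0.313, 0.609 and 1.04 CPM in KO replicates 1, 2 and 3. WT replicate 3 lay below KO replicate 3, so the genotypes overlapped. The KO tumours differed by a log2 fold change of -1.17 ± 0.61 (edgeR FDR 1.00), with -1.67 to -0.73 over the fits that leave out 1 library.

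Wnt9b, the ligand of central vein endothelium, had 1.28, 1.73 and 0.809 CPM in WT and 0.551, 0.873 and 1.28 CPM in KO, taken in replicate order. Its highest and lowest libraries were WT replicate 2 and KO replicate 1, with the other 4 interleaved, and its log2 fold change was -0.50 ± 0.46. Wnt9a, its close relative, had 1.00, 0.528 and 0.135 CPM in WT and 0.228, 0.278 and 0.350 CPM in KO (-0.96 ± 0.70). Without WT replicate 1, the only library of Wnt9a near 1 CPM, that value shrank to -0.21.

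Markers of sinusoidal endothelium also had negative fold changes. All 12 tested markers of that list were below 0, from Gata4 at -0.04 downward, and 10 did not overlap between genotypes, against 8.11% of all genes, although 0 passed edgeR's adjustment (8 had an unadjusted p under 0.05, against 3.62% of all genes). Their summed level was 449, 361 and 393 CPM in WT and 218, 269 and 239 CPM in KO, and none of the defining markers Stab2, Clec4g and Oit3 was at 0. Of the 10 general endothelial markers, 1 (Eng, -0.11) did not overlap, and the sums of the list did, at 176 to 221 CPM in WT and 160.0 to 241 CPM in KO. Lists for macrophages, neutrophils, T and NK cells and B cells were also mostly lower in KO, with 10 of 11, 7 of 7, 8 of 9 and 6 of 7 tested genes negative, 0 past edgeR's adjustment, and 4, 4, 4 and 2 under an unadjusted p of 0.05, against 3.62% of all genes. In the same order, 2, 2, 4 and 3 did not overlap, against 8.11%. Fold changes were also negative for 8 of 9 hepatocyte and 8 of 8 pancreatic acinar genes, and positive for 6 of 7 cell cycle genes. Of these last lists, taken in that order, 0, 0 and 1 genes did not overlap, against 8.11%. In bulk tumours fewer cells of a type and less RNA per cell cannot be told apart, and the part of endothelial content in the Wnt2 and Wnt9b values was not tested.

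**Figure D3:**
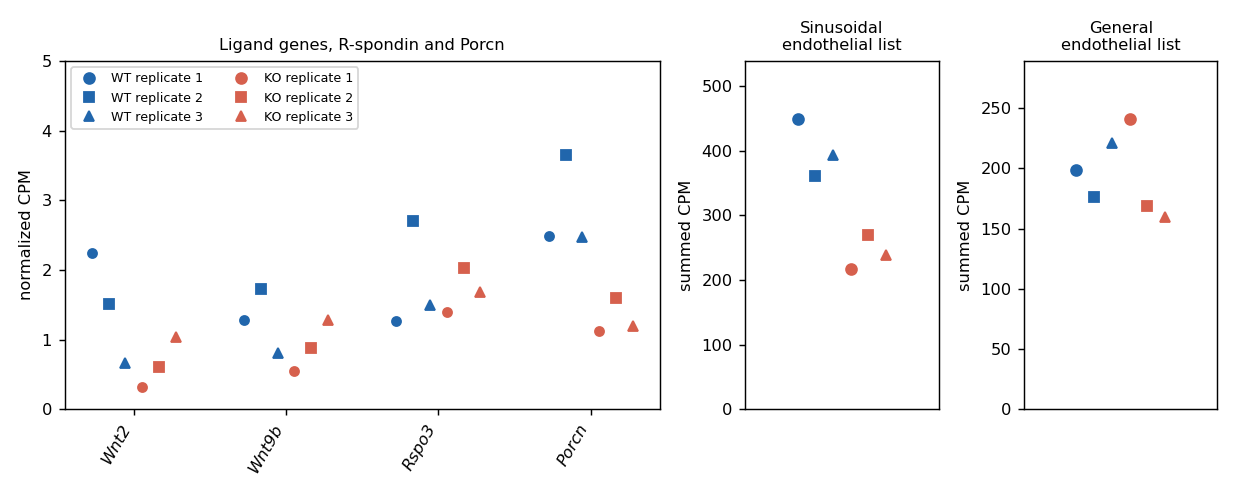
Normalized CPM of Wnt2, Wnt9b, Rspo3 and Porcn (left panel, y axis from 0) and summed CPM of the sinusoidal and the general endothelial marker lists (right panels), with 1 point per library, coloured by genotype and shaped by replicate. Porcn and the sinusoidal list separate the genotypes (KO lower), while Wnt2, Wnt9b, Rspo3 and the general endothelial list overlap.

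Wnt5a, a ligand that mainly acts through Ror receptors without beta-catenin, had 1.64, 2.56 and 1.80 CPM in WT and 1.62, 1.27 and 1.24 CPM in KO. All KO libraries were below all WT libraries, but WT replicate 1 and KO replicate 1 differed by a sliver. Its fold change on the log2 scale was -0.54 ± 0.32 (edgeR FDR 1.00). When only genes with at least 1 CPM in 3 libraries were kept, the refitted scaling made its genotypes overlap. Its annotated exons overlap Gm2670 on the opposite strand, and no source states whether reads were counted by strand.

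The remaining tested ligands were level or scarce. Wnt2b was the steadiest, with 1.10, 0.978 and 0.922 CPM in WT and 1.23, 1.08 and 0.905 CPM in KO (0.10 ± 0.30). Wnt4, a ligand of kidney and reproductive tract development, ranged from 0.263 to 0.991 CPM (0.14 ± 0.60). Wnt7a and Wnt16 were counted mainly in WT replicate 3 and KO replicates 1 and 2, with 19, 23 and 17 reads of Wnt7a and 23, 59 and 21 reads of Wnt16, and with 0 to 3 reads elsewhere. The same libraries also held most reads of the untested Wnt7b (43, 15 and 10) and Wnt10a (21, 7 and 4). Wnt1 was counted only in WT replicate 3 and KO replicate 1, at 10 reads each, and these are the libraries that stood apart on the first principal component. The other untested ligands, Wnt3, Wnt6, Wnt8b, Wnt10b and Wnt11, had 0 to 10 reads in any library.

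Wls, the carrier that takes finished Wnt proteins to the cell surface, had 4.97, 4.20 and 10.7 CPM in WT and 5.75, 4.50 and 4.24 CPM in KO. Only WT replicate 3 stood out, and the log2 fold change of -0.46 ± 0.39 became 0.07 without it. Porcn, the enzyme that attaches the lipid every Wnt ligand needs, is not among the 48 but sits upstream of Wls. It had 2.48, 3.65 and 2.47 CPM in WT and 1.12, 1.60 and 1.19 CPM in KO, with every KO library below every WT library. Its log2 fold change was -1.13 ± 0.31 (95% interval -1.88 to -0.39), which was under an unadjusted edgeR p of 0.05 but did not pass adjustment (FDR 1.00). Leaving out each library in turn gave -1.30 to -0.92.

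R-spondin transcripts were almost all Rspo3, the pericentral R-spondin, with 96.4 to 100% of the summed R-spondin RPKM. Rspo3 had 1.27, 2.71 and 1.50 CPM in WT and 1.40, 2.02 and 1.69 CPM in KO. Libraries numbered 2 were again the highest of each genotype, and the log2 fold change was -0.10 ± 0.38 (95% interval -1.01 to 0.82). Its exons overlap Gm48159 on the opposite strand. Rspo1 and Rspo4 had 0 to 4 reads in any library, and Rspo2 had 0 in all.

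The receptors were far more abundant than the ligands. Fzd4, an endothelial and hepatic Frizzled that also serves as a Norrin receptor, had the highest RPKM of the 10 Frizzleds in 6 of 6 tumours, at 3.26 to 4.05 and 25.9 to 42.1% of the Frizzled sum. Its CPM were 15.6, 17.4 and 15.2 in WT and 12.5, 16.8 and 12.9 in KO, a log2 fold change of -0.19 ± 0.18. Behind it, Fzd8 (1.77 ± 0.577 RPKM, SD, n = 6), Fzd7 (1.73 ± 0.773), Fzd1 (1.37 ± 0.255), Fzd6 (1.33 ± 0.421) and Fzd5 (1.24 ± 0.478) were not separated from each other by their spread. Fzd3 followed at 0.0828 RPKM, and Fzd2, Fzd9 and Fzd10 had 0 to 19 reads and were not tested.

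Fzd5, a Frizzled that couples to beta-catenin, had the smallest p of the receptors. It had 8.0, 5.76 and 10.2 CPM in WT and 14.7, 9.02 and 10.4 CPM in KO. WT replicate 3 lay inside the KO range, and the log2 fold change was 0.51 ± 0.29 (edgeR FDR 1.00). Its exons overlap Gm38058 on the opposite strand, as those of Fzd6 overlap Gm26704.

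Fzd7, which is often raised in liver cancer, had 6.66, 12.8 and 3.46 CPM in WT and 7.63, 9.54 and 12.8 CPM in KO. WT replicates 2 and 3 were near the highest and at the lowest of the 6 values, and the log2 fold change of 0.39 ± 0.47 ran from 0.04 without WT replicate 3 to 0.98 without WT replicate 2. Fzd8 had its lowest level in the same library, with 8.93, 9.23 and 3.43 CPM in WT and 5.92, 5.21 and 7.94 CPM in KO (-0.18 ± 0.40).

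Fzd1 was even across tumours, at 6.58, 6.45 and 5.05 CPM in WT and 6.80, 6.55 and 7.37 CPM in KO (0.20 ± 0.20). Fzd6 had 4.70, 8.28 and 4.15 CPM in WT and 7.91, 6.32 and 5.85 CPM in KO (0.23 ± 0.32). Fzd3 was scarce and uneven, with 25, 4 and 58 reads in WT and 93, 4 and 34 reads in KO, so its fold change of 0.37 ± 1.18 carried little information.

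The co-receptors Lrp5 and Lrp6, which join Frizzled in binding Wnt, had higher mean RPKM than any other of the 48 genes. Lrp6 had 63.6, 58.1 and 77.5 CPM in WT and 66.1, 69.3 and 64.3 CPM in KO, a 1.33-fold range over the 6 tumours and a log2 fold change of 0.00 ± 0.16. Lrp5 had 58.0, 46.6 and 56.2 CPM in WT and 69.5, 74.8 and 34.8 CPM in KO. Its KO tumours lay on both sides of the WT tumours (0.16 ± 0.30), and in RPKM Lrp5 exceeded Lrp6 in 2 of 6 libraries.

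**Figure D4:**
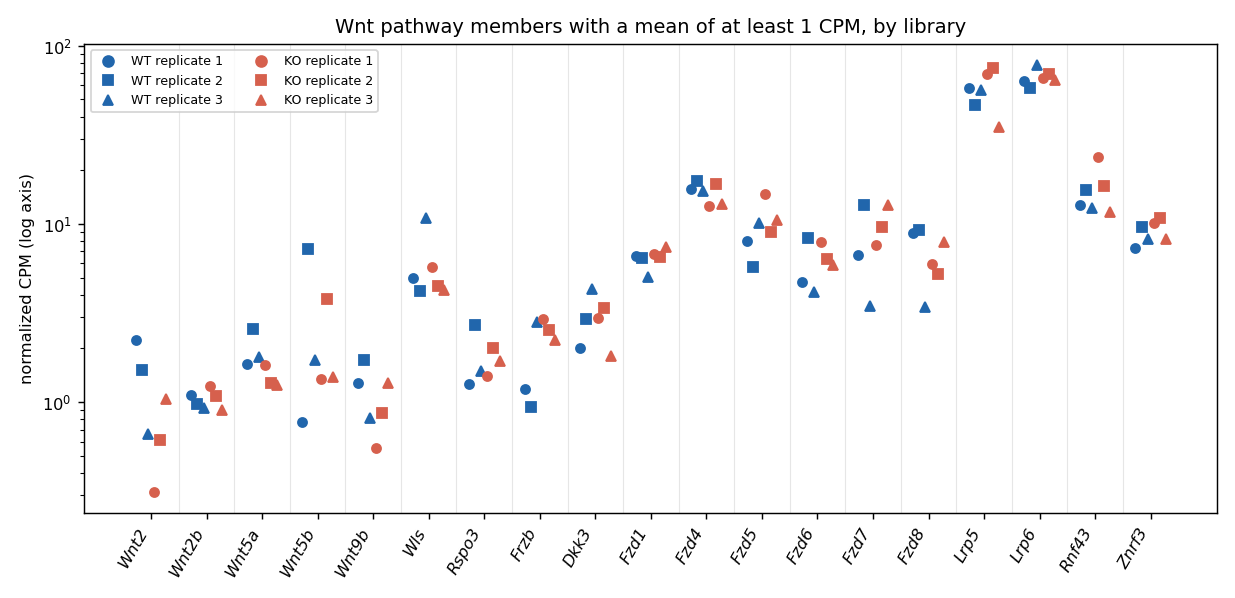
Normalized CPM (log y axis) of the 19 members with a mean of at least 1 CPM, with 1 point per library, coloured by genotype and shaped by replicate; genes are grouped by role along the x axis. Lrp5 and Lrp6 lie between 34.8 and 77.5 CPM, and the ligands lie between 0.313 and 7.23 CPM.

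Rnf43 and Znrf3, paired ligases that remove Frizzled receptors and are themselves induced by beta-catenin, were counted in every tumour. Rnf43 had 12.8, 15.4 and 12.3 CPM in WT and 23.7, 16.4 and 11.6 CPM in KO. KO replicate 1 was the highest and KO replicate 3 the lowest of the 6, and the log2 fold change was 0.35 ± 0.28 (0.06 without KO replicate 1). Znrf3 was tighter, with 7.36, 9.64 and 8.21 CPM in WT and 10.1, 10.7 and 8.24 CPM in KO (0.21 ± 0.20, 95% interval -0.26 to 0.68).

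Among inhibitors that bind Wnt ligands directly, Frzb had the highest RPKM in 6 of 6 tumours, with 50.5 to 94.5% of the sum over Sfrp1, Sfrp2, Sfrp4, Sfrp5, Frzb and Wif1. It had 1.18, 0.938 and 2.82 CPM in WT and 2.94, 2.54 and 2.22 CPM in KO. WT replicates 1 and 2 were low and WT replicate 3 fell within the KO range. The log2 fold change of 0.64 ± 0.46 (edgeR FDR 1.00) was 1.28 without WT replicate 3.

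Stellate and fibroblast markers did not vary as 1 group. Their 14 genes summed to 217, 259 and 502 CPM in WT and 781, 374 and 374 CPM in KO, and in KO replicate 1 Reln and Col3a1 made up 262 and 200.4 CPM of the sum. The fold change was positive for 10 and negative for 4, 0 passed edgeR's adjustment, and 1 of 14 (Des, higher in KO) was free of overlap, which is 7.14% against 8.11% of all genes. Under an unadjusted p of 0.05 there were 2, Des (1.13) and Ecm1, which was lower in KO (-0.81), where all genes gave 3.62%. Of the defining markers Des, Pdgfrb and Lrat, none was at 0. Like Frzb, Pdgfrb was lowest in WT replicates 1 and 2, at 4.68 and 5.59 CPM, against 10.4 to 15.96 CPM elsewhere (log2 fold change 0.84). The same libraries were lowest for Des, Reln, Col1a1 (1.77), Col1a2 (1.37), Col3a1 (1.28) and Lum. That pattern was not seen for Lrat, Dcn, Colec11, Ecm1, Hand2, Ngfr and Rgs5. Lrat (0.045) was highest in KO replicate 2 and WT replicate 2. A list for smooth muscle and portal fibroblasts had 6 of 6 positive fold changes, from 0.03 for Myh11 to 1.38 for Eln, and 0 past edgeR's adjustment. Eln alone was without overlap (16.7%, against 8.11% of all genes). It was also the only gene of that list under an unadjusted p of 0.05, against 3.62% of all genes. The part of these cells in the Frzb values was not tested.

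Sfrp1 was scarce, with 9, 50 and 4 reads in WT and 45, 10 and 16 in KO (-0.23 ± 1.06). Sfrp2 was counted only in KO tumours, at 3, 2 and 4 reads, too few to test after the filter. Wif1 had 0, 13 and 14 reads in WT and 0, 3 and 0 in KO, while Sfrp4 and Sfrp5 had 0 to 9 reads in any library.

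Dkk proteins block the Lrp co-receptors, except Dkk3, whose part in Wnt signalling is less clear. Dkk3 held 78.4 to 100% of the summed Dkk RPKM, with 2.00, 2.91 and 4.31 CPM in WT and 2.94, 3.39 and 1.82 CPM in KO (-0.18 ± 0.39). Dkk2 had the largest fold change and the smallest p of all members, from 0, 0 and 15 reads in WT and 91, 11 and 40 reads in KO. WT replicate 3 exceeded KO replicate 2, and the fitted log2 fold change of 3.00 ± 1.47 (edgeR FDR 1.00) depends on how reads of 0 are treated. Leaving out KO replicate 1 gave 2.26, and leaving out WT replicate 3 gave 8.50, where the remaining WT libraries had 0 reads and the fitted value is no bound. Dkk1 had 1 read in all and Dkk4 had 0 to 3 reads in any library.

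Among the other cell types listed, a cholangiocyte and progenitor list differed widely between tumours. Its 10 genes summed to 104, 56.9 and 539 CPM in WT and 495, 103 and 505 CPM in KO, and 0 of 9 tested were free of overlap. Spp1 made up 457, 413 and 465 CPM of the sum in WT replicate 3 and KO replicates 1 and 3, the libraries with the most Dkk2 reads. Prom1 was also highest in these libraries, at 45.8, 44.7 and 17.6 CPM, against 1.60 to 10.8 CPM elsewhere. No other gene of the list was highest in the same set of libraries. The defining markers were low and did not follow Dkk2 in KO replicate 3: Epcam had 4.29 CPM in WT replicate 3, 3.28 in KO replicate 1 and 0.205 in KO replicate 3, and Krt19 and Krt7 each had 0.229 CPM in that last library. The part of these cells in the Dkk2 values was not tested.

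Outside the member set, 58 further Wnt genes were examined from a list of intracellular components, receptors of other kinds, chaperones and the enzyme Porcn. Of 55 tested, 26 were higher and 29 lower in KO, with a median log2 fold change of -0.01. The genotypes did not overlap for 5 (9.09%, against 8.11% of all genes), and 0 passed edgeR's adjustment. Only 1 of the 55, Porcn, had an unadjusted edgeR p under 0.05, against 3.62% of all genes. DESeq2 also called 0 after adjustment. Ctnnb1, which encodes beta-catenin, had 202, 182 and 291 CPM in WT and 294, 241 and 244 CPM in KO (0.21 ± 0.24).

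After Porcn, the smallest p-values in that list belonged to Lgr4, Celsr1 and Pygo2. Lgr4, the main R-spondin receptor of hepatocytes, had 52.7, 57.2 and 49.3 CPM in WT and 44.7, 41.7 and 41.3 CPM in KO, without overlap (-0.32 ± 0.14). Celsr1, a cadherin of planar cell polarity, stood at 56.0 CPM in KO replicate 3 against 17.6 to 27.0 elsewhere (0.76 ± 0.35, 0.28 without that library). Pygo2, a nuclear partner of beta-catenin, had 11.2 to 13.9 CPM in WT and 14.1 to 18.9 CPM in KO (0.37 ± 0.18).

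Beta-catenin target genes varied widely between tumours of the same genotype. Of 29 tested, 11 were higher and 18 lower in KO, with a median of -0.46 and 1 without overlap (3.45%, against 8.11% of all genes). After adjustment by edgeR or DESeq2 0 passed, and 0 had an unadjusted edgeR p under 0.05, against 3.62% of all genes. WT replicate 2 was the highest library for 16 of the 29, and for 20.0% of all genes tested. Glul, glutamine synthetase, had 58.3, 581 and 91.4 CPM in WT and 87.4, 112 and 110.4 CPM in KO. That tumour was 5.20-fold above the next library for Glul and 5.04-fold above it for Cyp2e1, a pericentral cytochrome that activates DEN. Glul's log2 fold change of -1.24 ± 0.83 became 0.46 without it.

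The feedback targets, which report beta-catenin activity in many tissues, followed that tumour less sharply. Axin2 had 1.05, 4.54 and 0.416 CPM in WT and 1.87, 2.28 and 3.00 CPM in KO (0.25 ± 0.81). Notum, a secreted enzyme that removes the lipid from Wnt, had 7.30, 15.0 and 2.45 CPM in WT and 6.54, 7.03 and 11.4 CPM in KO (0.01 ± 0.61). Nkd1 was highest in WT replicate 2 at 2.38 CPM, against 0.888 to 1.13 elsewhere (-0.46 ± 0.45), while Lgr5 was highest in KO replicate 1 at 1.87 CPM (0.33 ± 0.44).

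The tumour with the high pericentral genes was the highest of the 6 for 9 of 26 tested members (34.6%, against 20.0% of all genes): Wnt5b, Wnt5a, Wnt9b, Wnt4, Rspo3, Sfrp1, Fzd4, Fzd6 and Fzd8. KO replicate 1 was the highest for 8 of the 26 (30.8%, against 16.0% of all genes). In WT replicate 2 the Rnf43 and Znrf3 values, 15.4 and 9.64 CPM, lay inside the range of the other libraries. Of the 4 target genes with the smallest p, Nr1i3 (-1.65 ± 0.83) and Cyp1a2 (-1.73 ± 0.89) shrank to -0.25 and -0.03 without WT replicate 2. Ccnd1, cyclin D1, was the gene without overlap, with 103, 17.8 and 100.5 CPM in WT and 208, 148 and 181 CPM in KO, so every KO tumour exceeded every WT tumour. Its fold change was 1.28 ± 0.61, and 0.81 without WT replicate 2. Lect2 stood at 142 CPM in KO replicate 1 against 17.1 to 42.3 elsewhere (1.38 ± 0.64, 0.37 without that library).

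**Figure D5:**
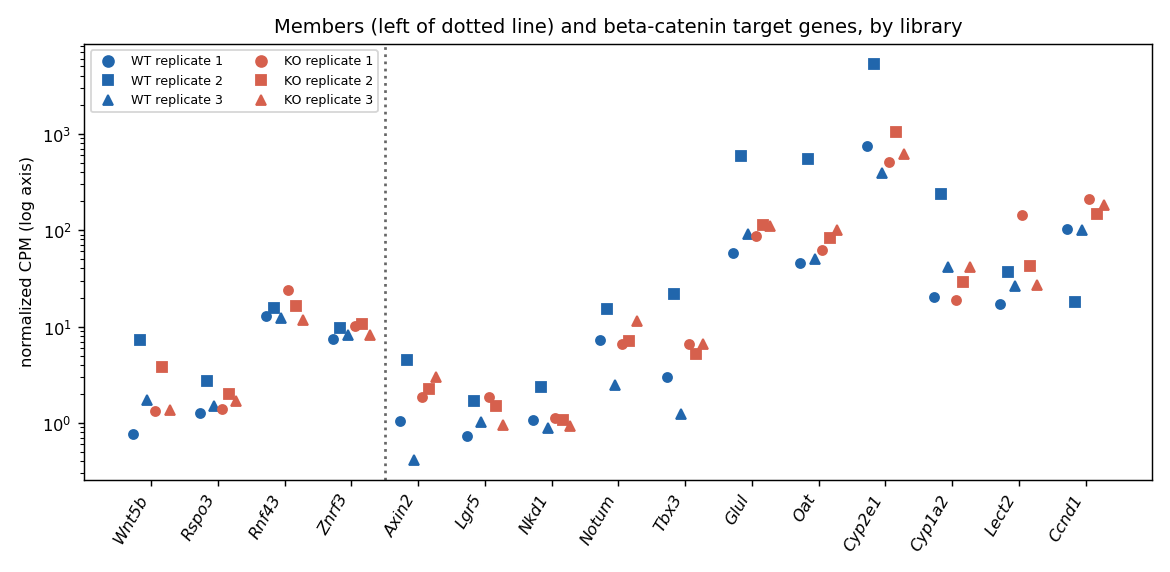
Normalized CPM (log y axis) of 4 members (left of the dotted line) and 11 beta-catenin target genes (right), with 1 point per library, coloured by genotype and shaped by replicate. WT replicate 2 reaches 581 CPM of Glul against 58.3 to 112 in the other tumours and has 7.23 CPM of Wnt5b, while Rnf43 and Znrf3 stay within the range of the others there.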

How the data were processed

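RNA sequencing of 6 mouse tumours was analysed from 1 table in which the authors deposited read counts and RPKM for every gene. The submitters' processing notes name TopHat2 2.0.6, HTSeq and bcl2fastq, with no roles, and the human builds hg19 and GRCh37. The identifiers are mouse Ensembl genes, and 84.2% of the 42462 shared with GENCODE M21 (GRCm38) have the same start, so coordinates are read as GRCm38. The deposited RPKM use the table's coding length and a library total 12.6 to 19.0% above the summed counts.

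Groups come from the sample titles. The main test was edgeR 4.0.16 under R 4.3.3 (filterByExpr, TMM factors, robust quasi-likelihood, two-sided) on 18359 genes, with Benjamini-Hochberg adjustment over all of them and a threshold of 0.05. CPM are TMM-scaled, standard errors are the log2 fold change over the root of the F statistic, and 95% intervals use edgeR's moderated degrees of freedom. DESeq2 1.42.0, RLE factors, other filters, a replicate block, a covariate for the description numbers and leaving out each library were alternatives. The tests were tried on simulated data. Values per library were given for members past the threshold, without overlap, among the 10 smallest p or with a mean of at least 1 CPM, and 4 genes of smallest p were named in each of the 2 pathway lists besides 6 fixed ones. Cyp2e1 and the scarce members given read by read were chosen after their values were seen. Members and lists were chosen with earlier results of these data known. Of 10 hepatocyte markers, 9 matched a deposited symbol. Lists of mesothelial (2 tested), pancreatic acinar (8) and cell cycle genes (7) had 0 genes past the threshold.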

Additional observations from a re-analysis of the deposited data

How the results depend on the processing

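The count of members past FDR 0.05 was 0 under every alternative run, as were the counts in both pathway lists. The median log2 fold change of the members was 0.12, and -0.12 to 0.15 when 1 library was left out. The number of members without overlap, 1 of 26, was 2 of 45 by DESeq2 (7.20% of all genes there), 3 of 45 with no low-count filter (7.31%) and 0 of 18 with a minimum of 1 CPM in 3 libraries (7.54%). It ran from 1 to 8 when 1 library was left out, which leaves fewer libraries to overlap. The 8 came without WT replicate 3, where 28% of all genes did not overlap and 5 of 26 members (Dkk2, Frzb, Fzd5, Wnt2 and Wnt9a) had an unadjusted edgeR p under 0.05, against 9.47% of all genes. Without both WT replicate 3 and KO replicate 1, an alternative chosen after seeing the data, it was 7 of 23, against 36.5% of all genes.

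Leaving out 1 library, or WT replicate 3 and KO replicate 1 together, changed the sign of the log2 fold change for 19 of the genes followed, with these ranges: Dkk3 -0.40 to 0.15, Fzd3 -0.64 to 1.25, Fzd6 -0.085 to 0.60, Fzd8 -0.51 to 0.040, Lrp5 -0.036 to 0.43, Lrp6 -0.083 to 0.14, Rnf43 -0.0074 to 0.57, Rspo3 -0.30 to 0.30, Sfrp1 -1.54 to 1.54, Wls -0.70 to 0.075, Wnt16 -0.074 to 7.53, Wnt2b -0.058 to 0.21, Wnt4 -0.34 to 0.92, Wnt5b -1.25 to 0.80, Wnt7a -0.32 to 2.52, Axin2 -0.23 to 1.70, Nkd1 -0.77 to 0.10, Notum -0.43 to 0.77, Glul -1.70 to 0.46. The covariate that sets description numbers under 2000 apart gave Dkk3 0.079, Fzd3 -1.01, Rspo3 0.11, Wnt5b 0.27 and Notum -0.010. RLE factors gave Lrp6 -0.0011, and the replicate block gave Sfrp1 0.44. The cause was not tested.

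Replicate numbers are shared between genotypes, but the labels do not say that they pair tumours, and deviations of same-numbered libraries correlated at -0.29, 0.18 and -0.34 over genes. With the replicate number as a block 0 members passed and the median was 0.10. The block does not enter the count of members without overlap, so that count could not change. Depth limits the scarce members: 22 of 48 were not tested, 19 of them with reads and 3 with 0.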
